A study of Schizosaccharomyces pombe with 24 samples.

Results

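The mug genes (meiotically upregulated genes) of the fission yeast Schizosaccharomyces pombe are a numbered series of genes named for transcripts that increase when cells pass through meiosis. They were taken here as every gene whose current symbol is mug followed by digits, with the brightest probe set for each gene. This gave 91 genes among 4981 features measured, each with 1 probe set, and they covered all 91 symbols of this form in the RefSeq annotation. A further 84 measured genes carry a mug name only as a synonym because they were later renamed, among them spo5 and mcp3, and these were not counted as members.

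Fission yeast grows as haploid cells and enters meiosis only after mating, which follows nitrogen starvation. The transcription factor Ste11 switches on the mating genes and mei2, whose RNA-binding product starts meiosis, and the forkhead factor Mei4 later drives the genes of the meiotic divisions and of spore formation. In growing cells meiotic transcripts are kept low, partly because the RNA-binding protein Mmi1 directs many of them to destruction by the nuclear exosome. Many mug genes are known from little more than their induction in meiosis, and they share no common biochemical function.

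The study compared strains lacking histone acetyltransferases, enzymes that place acetyl groups on histone tails, on 24 Affymetrix Yeast Genome 2.0 arrays of RNA from asynchronous cultures grown at 30 °C. Gcn5 is the catalytic subunit of the SAGA coactivator, Elp3 that of Elongator, and Mst1 and Mst2 are MYST-family enzymes, of which Mst1 is essential. There were 3 arrays each of wild type, Δgcn5, Δmst2, Δelp3, the temperature-sensitive mst1 strain (mst1-ts), Δgcn5Δmst2 and Δmst2Δelp3, 2 of Δgcn5Δelp3 and 1 of the triple mutant Δgcn5Δelp3Δmst2. Strain numbers were taken from the legends of the study's Affymetrix figures, of which 1 names the wild type. By these each genotype was 1 strain, h+ except for the h- Δgcn5. All were listed with ade6 and ura4 mutations and, apart from mst1-ts, with mutant leu1. Legends of other experiments name further strains, all h-, for wild type, Δgcn5 and Δgcn5Δmst2. gcn5 and elp3 were replaced by kanamycin-resistance markers and mst2 by ura4+, Δgcn5 and Δgcn5Δmst2 also carried his3-D1, the wild type alone carried can1-1, and mst1-ts had its own mst1 replaced and the mutant mst1 placed at leu1 under an nmt promoter. These differences go with the genotypes. The methods describe independent isolates of each strain, but the labels do not say whether replicates were separate cultures, so the p-values measure the spread between arrays.

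Before any comparison, the arrays were checked against the labelled deletions on the log2 scale of the deposited intensities. The library labelled Δgcn5 replicate 2 had gcn5 at 10.93, inside the wild-type range of 10.58 to 11.05, and mst2 at 5.21, where the other Δgcn5 libraries had mst2 at 9.91 and 10.00. The library labelled Δmst2 replicate 2 had mst2 at 10.01 and gcn5 at 5.44. Both therefore went against their labels, and each had the low signal that the other's label gives. Wild-type replicate 2 had ura4 at 12.85, beside 7.40 and 7.45 in the other wild-type libraries. All libraries were kept, and results that rest on the 2 libraries labelled replicate 2 are given with and without them. The elp3 transcript lay between 5.93 and 6.98 in the strains without elp3 and between 11.04 and 12.03 elsewhere, and mst1 between 11.38 and 11.94 in mst1-ts and between 10.09 and 10.58 in wild type. All 9 arrays of strains without elp3 were labelled with a different kit from the other 15, from less RNA, and on the second of 2 experiment dates. The only other array of that date was Δgcn5Δmst2 replicate 3, which was labelled with the kit of the first date.

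In wild-type cells most mug transcripts gave low signals. Their median wild-type level was 8.65, between 5.32 for mug96 and 13.75 for mug64, with quartiles at 6.83 and 10.31, and the median over all features was 11.02. Of the 91 genes, 78 (85.7%) lay under that overall median and 59 lay among the lowest 20% of all features. The dimmest were mug96, mug116, mug137, mug27 and mug114, with wild-type means between 5.32 and 5.62. Mug27 is a protein kinase needed to form the forespore membrane, the membrane that wraps each spore. At the other end, mug64, mug161, mug157, mug113 and mug89 had wild-type means between 11.71 and 13.75, above the median of all features. Signals of different probe sets are not measured per length, so this order is one of signal and not of transcript number.

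The 91 genes were spread over the genome, with 46 on chromosome I, 23 on chromosome II and 22 on chromosome III, or 1.97%, 1.23% and 2.40% of the protein-coding genes of each. By gene order, mug170 was the 18th protein-coding gene from an end of chromosome III, mug9 the 29th and mug135 the 35th, and mug14 was the 38th from an end of chromosome II. There were 3 pairs of neighbouring genes, mug57 and mug97, mug58 and mug177, and mug86 and mug116. Across the 9 group means the log2 levels of mug86 and mug116 had a Pearson correlation of 0.70, those of mug58 and mug177 0.20 and those of mug57 and mug97 -0.38, each over 9 points that share the arrays and the normalization.

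A limma moderated F test over the 9 groups, with Benjamini-Hochberg adjustment over all features, was passed by 75 of the 91 mug genes (82.4%), where 75.2% of all features passed it. The rise or fall of each gene in each mutant was then tested against wild type with limma, and "rose" and "fell" below mean an adjusted p under 0.05 over all 4981 features. At least 1 of these 8 comparisons, which share the 3 wild-type arrays, was passed by 68 mug genes (74.7%), where 65.4% of all features passed at least 1. RNA of a whole culture was measured, so fewer cells with a transcript and less transcript per cell cannot be told apart.

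**Figure D1:**
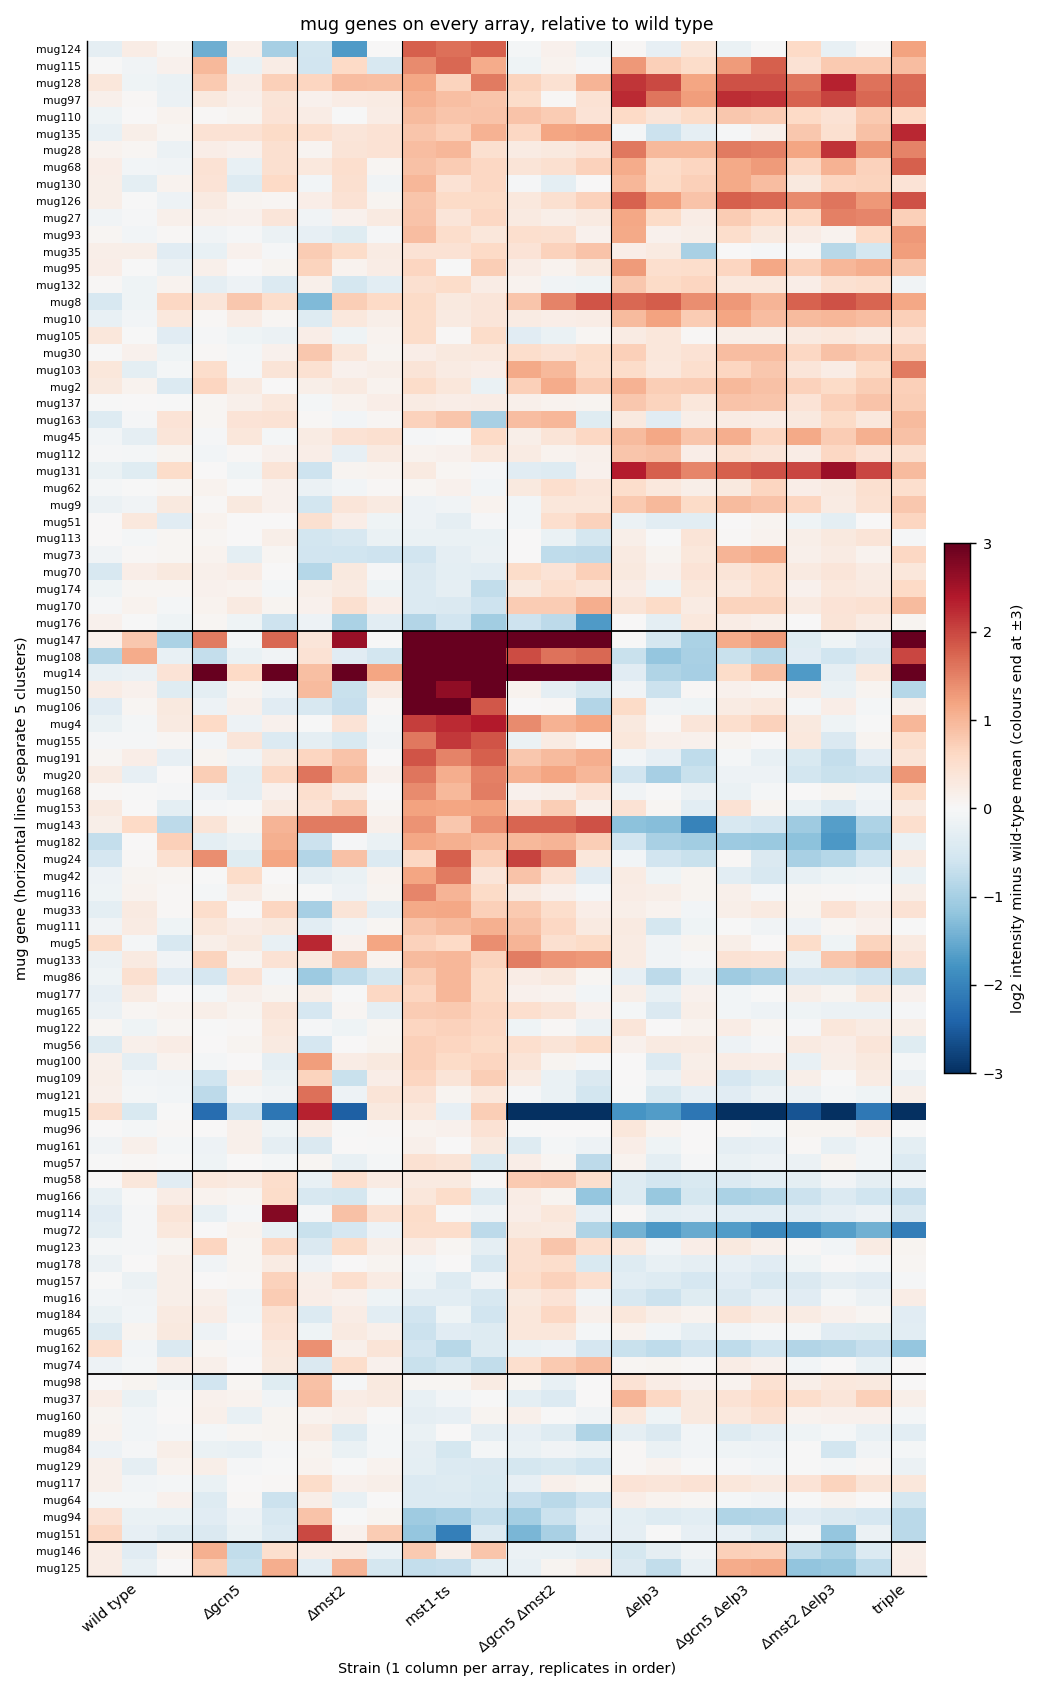
Each row is 1 of the 91 mug genes and each column 1 of the 24 arrays, coloured by log2 intensity minus the gene's wild-type mean (colours end at 3 above and 3 below), with rows in 5 clusters of 35, 32, 12, 10 and 2 genes by average linkage. By its median change the uppermost block is highest in the strains without elp3 on the right (0.53 to 0.81) and the second in mst1-ts (1.01). Single genes depart from this, such as mug15, the blue row of the second block in Δgcn5Δmst2 and the strains without elp3.

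The largest share of mug genes changed in mst1-ts, the strain with reduced function of the essential enzyme Mst1. There 37 of 91 rose (40.7%), where 13.7% of all features rose, and 9 fell (9.89%), where 21.8% of all features fell. The median change of the mug genes was 0.37 on the log2 scale and that of all features was -0.07. Past a fold threshold of 3.25, or 1.70 on the log2 scale (the methods use both numbers and call both log2), 9 mug genes rose and none fell, where 2.87% of all features rose and 0.161% fell. This comparison shared its labelling kit and its experiment date. After a further quantile normalization 29 mug genes rose and 12 fell, where 13.4% of all features rose and 19.8% fell, and their median was 0.22. Leaving out the lowest 20% of features kept 31 mug genes. Of these 10 rose (32.3%) and 5 fell (16.1%), where 11.4% of all features rose and 21.2% fell. The median was 0.16 for the mug genes and -0.07 for all features.

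**Figure D2:**
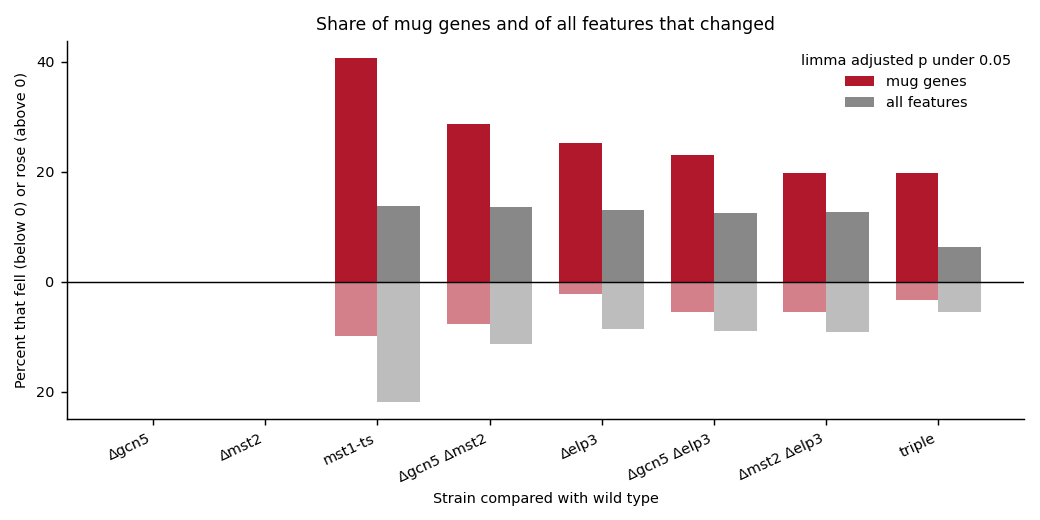
Bars above 0 give the percent that rose and bars below 0 the percent that fell against wild type (limma, adjusted p under 0.05), for the 91 mug genes and for all 4981 features, in the 8 mutant strains. The mug bars above 0 are the taller of each pair in the 6 strains with any calls, with 40.7% against 13.7% in mst1-ts.

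The largest rise in mst1-ts was that of mug147. Its log2 levels in the 3 wild-type arrays were 8.45, 9.13 and 7.38, and in mst1-ts 12.72, 12.89 and 12.42. Every mst1-ts array lay above every wild-type array, with a difference of 4.36 ± 0.55 (SE, limma adjusted p = 1.1e-05) or 20.5-fold. mug108 rose from 6.37, 8.38 and 7.06 to 11.68, 11.43 and 10.90, a difference of 4.06 ± 0.36 (limma adjusted p = 1.3e-07). The wild-type arrays were themselves widely spread for this gene, and the groups still did not overlap.

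mug14, which encodes an adducin-like protein, had wild-type levels of 8.96, 9.0 and 9.59 and mst1-ts levels of 13.23, 12.89 and 13.17. The groups were far apart and each was tight. The error of the difference, 3.91 ± 0.92 (limma adjusted p = 0.0032), takes in the wide spread of this gene in the groups labelled Δgcn5 and Δmst2. That spread came with the libraries that went against their labels, as described below. mug150 rose from 8.23, 8.14 and 7.64 to 11.17, 10.66 and 11.47, by 3.10 ± 0.31 (limma adjusted p = 6.4e-07). mug106 rose from 6.90, 7.28 and 7.52 to 10.28, 10.24 and 9.09, by 2.64 ± 0.31 (limma adjusted p = 4.6e-06). For both genes the other strains stayed near wild type: no array of another strain exceeded 8.95 for mug150 or 7.80 for mug106, and neither gene was called in any other comparison with wild type.

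The other mug genes past the fold threshold were mug4 (2.23 ± 0.18), mug155 (1.87 ± 0.20), mug124 (1.74 ± 0.37) and mug191 (1.73 ± 0.21), which were picked out after their values were seen. Smaller rises were seen among the dimmest transcripts. mug116 was at 5.37, 5.62 and 5.53 in wild type and at 6.98, 6.52 and 6.09 in mst1-ts, a rise of 1.02 ± 0.16, and its neighbour mug86, a gene of the acetate transporter family, rose by 0.77 ± 0.23. The kinase gene mug27 differed by 0.62 ± 0.22 (limma adjusted p = 0.040), a call that was lost under 6 of 12 alternatives, among them a further quantile normalization (lowest value 0.25) and the omission of wild-type replicate 1 or 2 or of mst1-ts replicate 1 or 3. The mug86 call was lost without wild-type replicate 1 or 3 or mst1-ts replicate 2.

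The falls in mst1-ts were smaller than the rises. mug151 fell by 1.20 ± 0.44 on the log2 scale, from 11.05, 10.19 and 10.04 to 9.28, 8.38 and 10.03, so that the third mst1-ts array lay just under the lowest wild-type one. This call was lost under 7 of 13 alternatives, within the first date, after a further quantile normalization, with only the compared groups fitted and without wild-type replicate 1 or 2 or mst1-ts replicate 1 or 2, and its value ranged from -1.60 to -0.77. mug94 fell by 0.93 ± 0.21, mug176 by 0.83 ± 0.26, mug74 by 0.65 ± 0.17 and mug170 by 0.49 ± 0.12, of which mug176 was not called without wild-type replicate 1 or mst1-ts replicate 1 or 3. mug170 moved the other way in the double mutant. It was at 10.09, 10.23 and 10.07 in wild type and at 9.71, 9.70 and 9.52 in mst1-ts, but at 10.90, 10.90 and 11.21 in Δgcn5Δmst2, where it rose by 0.87 ± 0.12 (limma adjusted p = 5.1e-05).

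Markers of mating and of spores moved with these changes in mst1-ts. All 4 spore markers rose (isp3, which encodes a protein of the spore surface, by 5.36 ± 0.36), and their mean level was 9.65 to 9.74 over the mst1-ts arrays and 7.36 to 7.50 over the wild-type arrays. They belong to a longer list of 21 measured spore formation genes, in which some genes rose and others fell. The mean of that list was 9.39 to 9.45 in mst1-ts and 8.74 to 8.82 in wild type. All 4 P-cell markers rose too, with a mean of 10.35 to 10.43 against 8.34 to 8.66, and 1 of 6 M-cell markers rose. None of the 14 pheromone and mating genes fell and 7 rose, with a median of 1.10. The part of such cells in the rise of the mug genes was not tested.

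**Figure D3:**
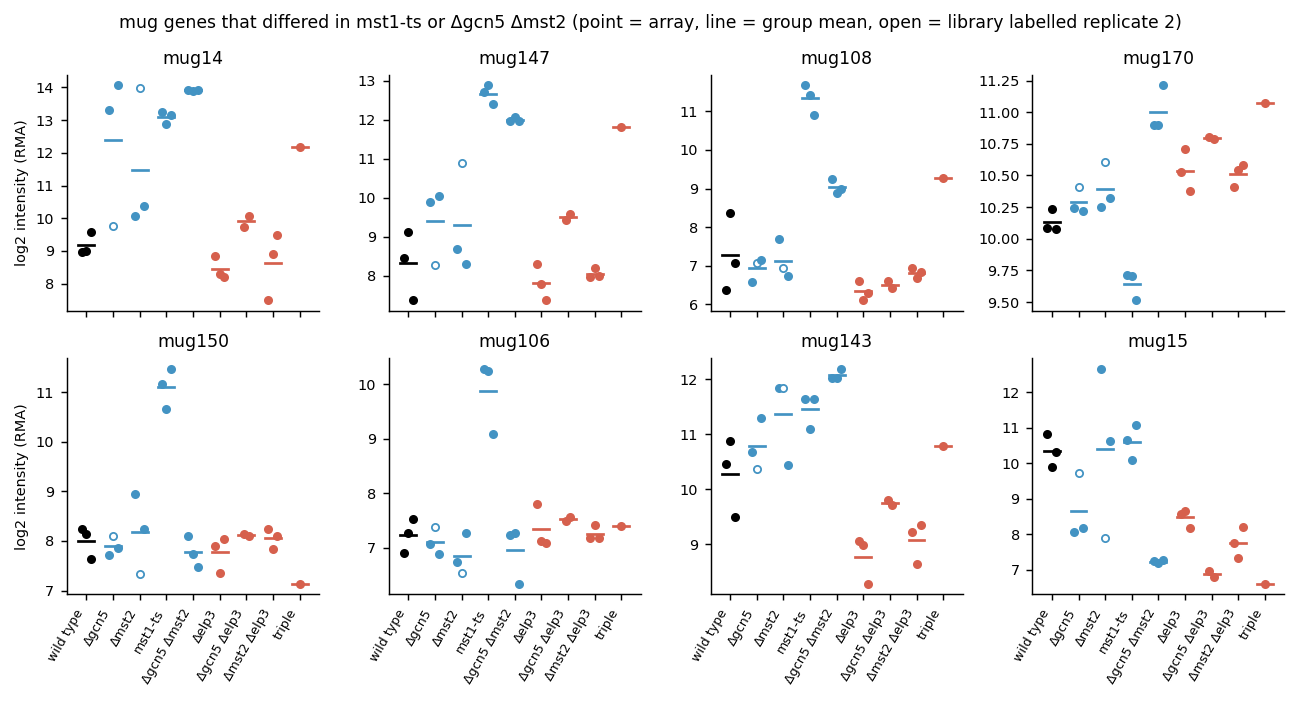
Log2 intensity of 8 mug genes on each array (points) with group means (lines), in wild type (black), strains with elp3 (blue) and strains without it (red), with the libraries labelled Δgcn5 and Δmst2 replicate 2 as open points. mug147, mug108 and mug14 are high in mst1-ts and Δgcn5Δmst2, mug150 and mug106 in mst1-ts, and mug15 is near 7 in Δgcn5Δmst2 and Δgcn5Δelp3. The vertical axes do not start at 0 and differ between genes.

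Loss of both Gcn5 and Mst2 changed fewer mug genes. In Δgcn5Δmst2, 26 of 91 rose (28.6%), where 13.6% of all features rose, and 7 fell (7.69%), where 11.3% of all features fell. The median was 0.20 for the mug genes and -0.01 for all features, and 4 mug genes rose and 1 fell past the fold threshold, where 1.1% and 0.903% of all features did. With the arrays of the first date alone, which leaves 2 of Δgcn5Δmst2, 13 mug genes rose and 2 fell, where 5.24% of all features rose and 3.37% fell.

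mug14 had the largest rise, to 13.92, 13.89 and 13.92, a difference of 4.72 ± 0.92 (limma adjusted p = 0.0015). mug147 rose to 11.96, 12.07 and 11.97, by 3.68 ± 0.55 (limma adjusted p = 1.4e-04). Replicate 3, from the second date, did not stand apart for either gene. mug143 was at 10.47, 10.87 and 9.50 in wild type and at 12.03, 12.02 and 12.19 in the double mutant, a rise of 1.80 ± 0.37 (limma adjusted p = 0.0024). mug108 rose by 1.77 ± 0.36, to 9.23, 8.89 and 9.0, less than the 4.06 seen in mst1-ts, though the difference between the 2 mutants was not tested. mug8 was at 8.66, 9.31 and 9.72 and rose by 1.41 ± 0.40, a call lost with date as a covariate, within the first date and without wild-type replicate 1 or Δgcn5Δmst2 replicate 3, and mug110 rose by 0.68 ± 0.13.

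The outstanding fall was that of mug15. Its wild-type levels were 10.82, 9.88 and 10.32, and those in Δgcn5Δmst2 were 7.24, 7.17 and 7.27. The difference was -3.11 ± 0.74 (limma adjusted p = 0.0059), an 8.66-fold lower signal, and no array overlapped. The remaining 6 falls were smaller. They were those of mug176 (-1.03 ± 0.26), mug64 (-0.70 ± 0.13), mug94 (-0.65 ± 0.21), mug129 (-0.53 ± 0.10), mug73 (-0.51 ± 0.17) and mug89 (-0.51 ± 0.16), which encodes a CDC50-domain protein. For mug73 the arrays overlapped those of wild type, with 8.02, 7.24 and 7.23 against 7.90, 8.04 and 8.07, and its call was lost under 8 of 12 alternatives, each single wild-type array left out among them. The calls of mug94 and mug89 were lost under 5 of 12 and 5 of 13, both without wild-type replicate 1, within the first date and with only the compared groups fitted, and those of mug15 and mug176 within the first date.

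Mating genes moved in the same strain. All 14 pheromone and mating genes rose, with a median of 2.53, as did all 4 P-cell markers, whose mean was 12.05 to 12.46 against 8.34 to 8.66 in wild type. Of the M-cell markers 1 of 6 rose. Spore markers rose for 3 of 4, with a mean of 8.62 to 8.86 against 7.36 to 7.50. Their part in the levels of the mug genes was not tested.

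In the single mutants Δgcn5 and Δmst2 no mug gene passed the test. This was also nearly so for all features, of which 0% rose in either strain and 0.12% fell in Δgcn5 and 0.161% in Δmst2. Past the fold threshold no mug gene was called in either, where 0.1% of all features fell in Δgcn5 and 0.0803% in Δmst2. At an unadjusted p under 0.05, limma gave 4 mug genes higher (4.40%) and 2 lower (2.20%) in Δgcn5, where 3.39% of all features were higher and 2.97% lower, and 14 higher (15.4%) and 3 lower (3.30%) in Δmst2, where 8.55% and 8.35% were. These counts rest on the libraries that went against their labels. Without those, 3 mug genes rose and 3 fell in Δgcn5, where 3.47% of all features rose and 2.61% fell, and 1 rose and none fell in Δmst2, where 0.141% and 0.442% did.

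The values of mug14 went with the measured deletions and not with the labels. It was at 13.31, 9.77 and 14.06 in the libraries labelled Δgcn5 and at 10.08, 13.98 and 10.36 in those labelled Δmst2. Replicate 2 was the low one in the first group and the high one in the second. The libraries with low gcn5 signal thus had mug14 at 13.31, 14.06 and 13.98, and those with low mst2 signal at 9.77, 10.08 and 10.36. Whether the libraries were exchanged was not tested. With all arrays the difference from wild type was 3.20 ± 0.92 in Δgcn5 (limma adjusted p = 0.47) and 2.29 ± 0.92 in Δmst2 (limma adjusted p = 0.25). Without both libraries it was 4.50 ± 0.40 in Δgcn5 (limma adjusted p = 1.1e-06).

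mug15 split likewise, with 8.06, 9.73 and 8.17 in the libraries labelled Δgcn5 and 12.66, 7.88 and 10.63 in those labelled Δmst2. The difference from wild type in Δgcn5 was -1.69 ± 0.74 with all arrays and -2.22 ± 0.43 (limma adjusted p = 0.0044) without both libraries. In that second fit Δgcn5 also had higher mug147 (1.65 ± 0.35) and mug125 (0.91 ± 0.19) and lower mug124 (-1.23 ± 0.24) and mug64 (-0.51 ± 0.10), and Δmst2 had higher mug5 (1.73 ± 0.34). mug114 gave a single outlying value, 8.37 in Δgcn5 replicate 3 beside 5.39 and 5.58 in the other libraries with that label. M-cell markers spanned 7.74 to 11.94 over the libraries labelled Δgcn5 (listed as h-) and 7.64 to 7.86 over wild type.

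Whether the double mutant departed from the sum of both single mutants was tested as an interaction on the log2 scale. With all arrays mug108 departed upwards by 2.26 ± 0.51 (limma adjusted p = 0.029) and mug129 downwards by -0.65 ± 0.14 (limma adjusted p = 0.028), where 0.883% of all features departed upwards and 0.502% downwards. The levels of mug108 were 6.57, 7.07 and 7.16 in the libraries labelled Δgcn5 and 7.70, 6.93 and 6.72 in those labelled Δmst2, of which 7.07 and 6.93 came from the libraries that went against their labels, within the wild-type range, beside 8.89 to 9.23 in the double mutant. Without both libraries 4 mug genes departed upwards and 2 downwards, with 2.07% and 1.57% of all features, and mug108 (2.24 ± 0.59) and mug129 (-0.73 ± 0.16) remained among them. With the arrays of the first date alone, with date as a covariate or with only the compared groups fitted none did.

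The strains without elp3 are set against wild type with the difference in labelling kit and date in mind. Loss of elp3 and the kit cannot be told apart in any comparison of these strains with wild type. The comparisons among them share kit and date. In Δelp3, 23 of 91 mug genes rose (25.3%), where 13% of all features rose, and 2 fell (2.20%), where 8.49% of all features fell. Only 2 rises were past the fold threshold, which 0.663% of all features passed upwards. The median was 0.06 for the mug genes and 0.02 for all features. The 2 libraries that went against their labels enter this comparison only through the shared spread. Without them 24 mug genes rose (26.4%) and 8 fell (8.79%), where 15.8% of all features rose and 10.7% fell. With date as a covariate mug97 and mug110 alone rose (2.20%), where 2.19% of all features rose. Without Δelp3 replicate 1, 13 mug genes rose and 2 fell, where 7.33% of all features rose and 5.84% fell. After a further quantile normalization 12 mug genes rose (13.2%) and 9 fell (9.89%), where 11.3% of all features rose and 9.94% fell, and their median was -0.10.

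mug131 had the largest rise in Δelp3. It was at 6.61, 6.45 and 7.37 in wild type and at 9.16, 8.59 and 8.28 in Δelp3, a difference of 1.87 ± 0.26 (limma adjusted p = 1.0e-04). mug97 went from 6.67, 6.55 and 6.35 to 8.75, 8.14 and 7.77, by 1.70 ± 0.18 (limma adjusted p = 8.7e-06). The groups did not overlap for either gene, and for both replicate 1 of Δelp3 was the highest of the 3. mug128 rose by 1.77 ± 0.27, mug8 by 1.65 ± 0.40 and mug126 by 1.29 ± 0.18. mug28, which encodes an RNA-binding protein needed for proper spore formation, was at 6.85, 6.81 and 6.56 in wild type and at 8.33, 7.71 and 7.72 in Δelp3, and rose by 1.18 ± 0.22 (limma adjusted p = 0.0011).

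The same genes can be followed in the other strains without elp3, which were compared with the same wild-type arrays. mug131 was at 8.61 and 8.72 in Δgcn5Δelp3, at 8.81, 9.37 and 8.81 in Δmst2Δelp3 and at 7.77 in the single array of the triple mutant, the lowest of the 9. mug97 was at 8.75 and 8.69, at 8.29, 8.56 and 8.24 and at 8.24 in the same order. mug126 was at 7.87 and 7.80, at 7.49, 7.68 and 7.37 and at 7.99. For mug97 and mug126 every array without elp3 exceeded every array with it, for mug126 narrowly (6.92 against 6.90 in mst1-ts replicate 1).

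**Figure D4:**
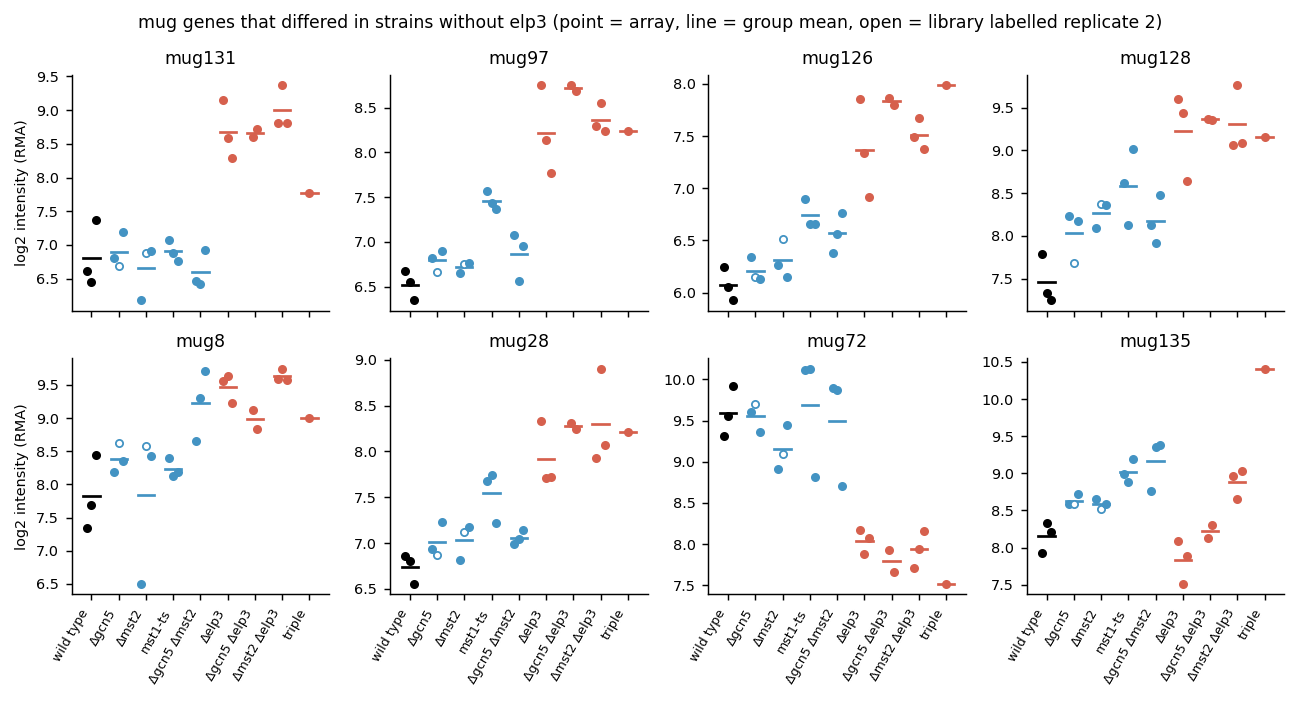
Log2 intensity of 8 mug genes on each array (points) with group means (lines), in wild type (black), strains with elp3 (blue) and strains without it (red), with the libraries labelled Δgcn5 and Δmst2 replicate 2 as open points. mug131, mug97 and mug126 are highest and mug72 lowest in the strains without elp3, and mug135 is highest at 10.41 in the triple mutant. The vertical axes do not start at 0 and differ between genes.

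With all arrays the falls in Δelp3 were those of mug72 and mug143. mug72 was at 9.31, 9.56 and 9.92 in wild type and at 8.17, 7.88 and 8.08 in Δelp3, a difference of -1.55 ± 0.32 (limma adjusted p = 0.0025). It was also low in Δgcn5Δelp3 (7.93 and 7.66), Δmst2Δelp3 (7.71, 7.94 and 8.16) and the triple mutant (7.52). The third replicates of mst1-ts (8.82) and of Δgcn5Δmst2 (8.70) were the lowest arrays of strains with elp3. The latter is the only array with elp3 from the second date. With date as a covariate the mug72 difference was -0.37 in Δelp3, -0.62 in Δgcn5Δelp3, -0.48 in Δmst2Δelp3 and -0.89 in the triple mutant. It was then called in none of these strains, and the part of the date was not tested. mug143 fell by 1.51 ± 0.37, to 9.05, 8.99 and 8.28, and was the gene that rose in mst1-ts (1.18 ± 0.37, lost within the first date and without wild-type replicate 3 or mst1-ts replicate 1 or 3) and in Δgcn5Δmst2.

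In Δgcn5Δelp3, 21 mug genes rose (23.1%), where 12.5% of all features rose, and 5 fell (5.49%), where 9.01% of all features fell. Past the fold threshold 4 rose and 2 fell, where 0.783% and 0.462% of all features did. Without Δgcn5Δelp3 replicate 1, which leaves 1 array, 15 rose and 1 fell, where 4.46% of all features rose and 2.33% fell. With date as a covariate 5 rose and 1 fell, where 2.11% and 0.522% of all features did, and after a further quantile normalization 14 rose and 7 fell, where 11.5% and 9.72% of all features did, with a median of -0.04 in place of 0.18. mug15 fell most, to 6.97 and 6.80, a difference of -3.46 ± 0.83 (limma adjusted p = 0.0070). mug72 (-1.80 ± 0.36), mug182 (-1.11 ± 0.37), mug86 (-1.03 ± 0.25) and mug94 (-0.89 ± 0.24) fell too. The calls of mug15, mug86, mug94 and mug182 were each lost when either Δgcn5Δelp3 array was left out, and that of mug182 under 7 of 10 alternatives, the replicate block among them. mug15 was at 8.57, 8.66 and 8.17 in Δelp3, itself lower than every wild-type array, with an adjusted p that missed the threshold.

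In Δmst2Δelp3, 18 mug genes rose (19.8%), where 12.7% of all features rose, and 5 fell (5.49%), where 9.19% of all features fell. Past the fold threshold 4 rose and 1 fell, where 0.582% and 0.502% of all features did. With date as a covariate mug97 and mug110 alone were called, where 1.53% of all features rose and 0.161% fell, and after a further quantile normalization 17 rose and 10 fell, where 11.8% and 10.4% of all features did. mug15 was at 7.74, 7.34 and 8.20, a difference of -2.58 ± 0.74 (limma adjusted p = 0.020) that was not called without wild-type replicate 1 or Δmst2Δelp3 replicate 2. mug182 was at 8.41, 7.92 and 8.58, a fall of 1.34 ± 0.33 from 8.93, 9.66 and 10.35 in wild type, and it was at 10.81, 10.71 and 10.62 in mst1-ts, where it rose by 1.07 ± 0.33. The first of these calls was lost without Δmst2Δelp3 replicate 2 and the second without wild-type replicate 1 or mst1-ts replicate 1. The kinase gene mug27 was at 6.20, 7.11 and 7.06 and rose by 1.20 ± 0.22 (limma adjusted p = 0.0014), from a wild-type mean of 5.59.

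The triple mutant was measured on 1 array, so its comparison borrows the spread of the other groups. By that fit 18 mug genes rose (19.8%), where 6.36% of all features rose, and 3 fell (3.30%), where 5.4% of all features fell. Past the fold threshold 7 rose and 2 fell, where 1.35% and 0.663% of all features did. With date as a covariate 7 rose, where 2.11% of all features did, with only wild type and the triple mutant in the fit 5 rose and 1 fell, where 1.18% and 0.301% did, and after a further quantile normalization 13 rose and 5 fell, where 6.08% and 6.04% did. mug147 was at 11.83, mug14 at 12.16 and mug108 at 9.29, levels that Δelp3, Δgcn5Δelp3 and Δmst2Δelp3 did not reach. mug147 rose by 3.51 ± 0.78 and mug108 by 2.02 ± 0.51. The difference for mug14, 2.98 ± 1.30, did not pass the test (limma adjusted p = 0.16). mug135 was at 10.41, a rise of 2.25 ± 0.24 (limma adjusted p = 1.1e-05), and its highest value on any other array was 9.38. mug68, at 7.79, rose by 1.79 ± 0.26. mug15 was at 6.60, the lowest of all 24 arrays, with a difference of -3.73 ± 1.05 that was not called without wild-type replicate 1. The P-cell marker mean was 10.80 and the M-cell mean 10.14 on this array, against at most 8.66 and 7.86 in wild type, and their part was not tested.

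Wild-type replicate 2, the library with high ura4, entered every comparison with wild type. Without it 32 mug genes rose and 8 fell in mst1-ts, where 17.7% of all features fell and 12% rose. In Δgcn5Δmst2, 20 rose and 6 fell, where 11.2% and 8.47% of all features did, and in Δelp3, 17 rose and 2 fell, where 9.58% and 5.68% did. In Δgcn5Δelp3, 19 rose and 4 fell (10.0% and 6.97% of all features), in Δmst2Δelp3, 18 and 3 (8.81% and 6.24%), and in the triple mutant 15 and 2 (5.62% and 4.46%).

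Comparisons within the strains without elp3 show what further loss of Gcn5 or Mst2 did under 1 kit and 1 date. Adding loss of gcn5 to loss of elp3 raised 1 mug gene and lowered none, where 0.502% of all features rose and 0.602% fell. This was mug73, at 8.26, 8.07 and 8.35 in Δelp3 and at 9.02 and 9.12 in Δgcn5Δelp3, a difference of 0.84 ± 0.19 (limma adjusted p = 0.033), which was not called when any of the 5 arrays was left out. Without the 2 libraries that went against their labels, 4 mug genes rose and 0 fell, where 1.22% of all features rose and 1.49% fell. These were mug73, mug125 (1.60 ± 0.19), mug147 (1.68 ± 0.35) and mug146 (0.99 ± 0.23). Those libraries enter this comparison only through the shared spread. With all arrays, adding loss of mst2 raised 1 as well, where 0.161% of all features rose and 0.602% fell. This was mug135, at 8.09, 7.51 and 7.89 in Δelp3 and at 8.96, 8.65 and 9.03 in Δmst2Δelp3, a difference of 1.05 ± 0.17 (limma adjusted p = 0.0017). Neither comparison had a mug gene past the fold threshold, which 0.141% of all features passed in each direction in the first and 0.0803% upwards and 0.422% downwards in the second. Unadjusted p-values under 0.05 gave 8 mug genes higher (8.79%) and 3 lower (3.30%) in the first comparison, where 4.38% and 4.98% of all features were, and 2 higher (2.20%) and none lower in the second, where 3.09% and 3.01% were. In the interaction of gcn5 with elp3 and in that of mst2 with elp3, in which an additive effect of the kit would cancel, no mug gene was called by limma, where 0.201% and 0.141% of all features departed upwards and downwards in the first and 0.1% and 0.281% in the second (0.12% and 0.0803%, and 0.1% and 0.241%, past the fold threshold). At an unadjusted p under 0.05 there were 2 upwards (2.20%) and none downwards in the first, where 1.77% and 2.25% of all features were, and 3 upwards (3.30%) and 4 downwards (4.40%) in the second, where 4.52% and 5.16% were. Without the libraries that went against their labels, mug14 departed downwards in the first, by -3.04 ± 0.57 (limma adjusted p = 0.0080). In that fit 0.462% of all features departed upwards and 0.683% downwards.

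The share of features that rose went with their level, and most mug genes are dim. The 91 genes were divided at their median level over all arrays, 8.90, under which 571 of all features lay. In Δelp3 40% of the 45 dim mug genes rose, where 26.8% of all dim features did, and 10.9% of the 46 brighter ones, where 11.2% of all brighter features did. In mst1-ts 48.9% of the dim and 32.6% of the brighter mug genes rose, where 29.1% and 11.7% of all such features did. In Δgcn5Δmst2 these shares were 22.2% and 34.8%, where 19.3% and 12.8% of all such features rose. The share of brighter mug genes was above that of brighter features in mst1-ts and Δgcn5Δmst2 and near it in Δelp3. It was also above that of brighter features in the triple mutant, which has a single array. These shares were not tested. After a further quantile normalization 28.9% of the dim mug genes rose in mst1-ts, 17.8% in Δgcn5Δmst2 and 20% in Δelp3, where 23.5%, 15.6% and 15.1% of all dim features did. Of the brighter mug genes 34.8% rose in mst1-ts and in Δgcn5Δmst2 and 6.52% in Δelp3, where 12.1%, 12.4% and 10.8% of all brighter features did.

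**Figure D5:**
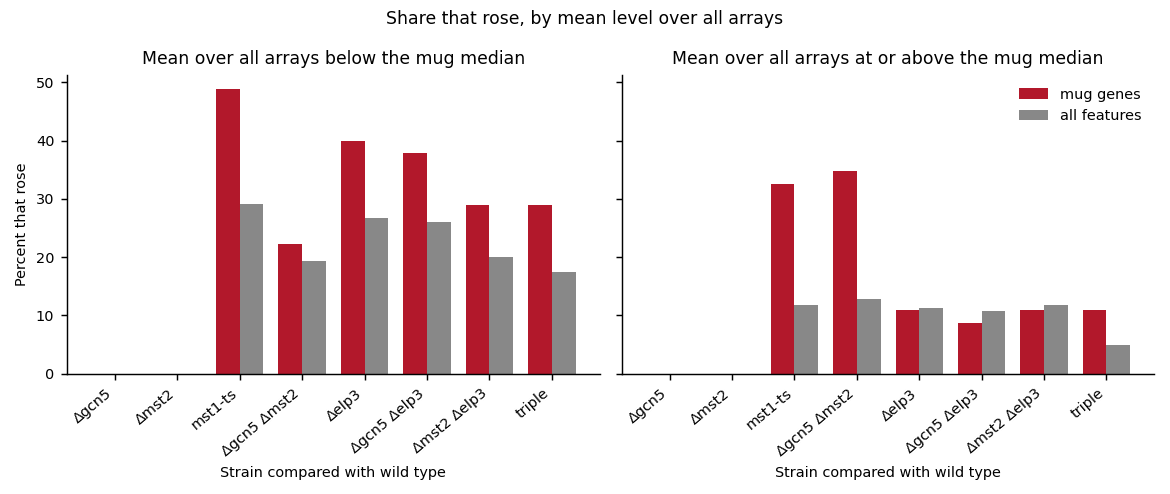
Percent of mug genes and of all features that rose against wild type (limma, adjusted p under 0.05) in each of the 8 mutants, for features whose mean over all arrays lay below the mug median of 8.90 (left) or not (right). On the right the mug bars stand above the grey ones in mst1-ts (32.6% against 11.7%) and Δgcn5Δmst2 (34.8% against 12.8%) and lie at or below them in Δelp3, Δgcn5Δelp3 and Δmst2Δelp3. The mug bar of the triple mutant, a single array, also stands above its grey one. The mean over all arrays includes the mutants, so a gene high in a mutant can fall on the right through it.

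Other meiotic genes were described in the same way. Of all features 13.7% rose and 21.8% fell in mst1-ts, 13.6% and 11.3% in Δgcn5Δmst2, and 13% and 8.49% in Δelp3. The counts below stand beside these shares and were not tested against them. The 84 renamed genes with a mug synonym had 16 rises and 11 falls in mst1-ts (19.0% rose), 19 rises and 5 falls in Δgcn5Δmst2 and 20 rises and 4 falls in Δelp3. Of 26 genes of meiotic recombination and its regulation, 4 rose and 2 fell in mst1-ts, 7 rose and none fell in Δgcn5Δmst2, and 14 rose and none fell in Δelp3, with a median of 0.53 there. Examples in Δelp3 are mei4 (1.93 ± 0.29) and rec8, the meiotic cohesin gene (1.11 ± 0.19), and neither was called in mst1-ts (0.09 ± 0.29 and -0.20 ± 0.19). Of 21 measured spore formation genes, 10 rose and 4 fell in mst1-ts, 7 rose and none fell in Δgcn5Δmst2, and 9 rose and 1 fell in Δelp3. The 18 genes named meu (meiotic expression upregulated) had 7 rises in each of these strains, with 2, 1 and 1 falls. The meiosis-specific recombinase gene dmc1 rose in mst1-ts (1.76 ± 0.31), Δgcn5Δmst2 (1.28 ± 0.31) and Δelp3 (1.00 ± 0.31).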

How the data were processed

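The deposited values are log2 intensities that the authors made from Affymetrix scans with RMA, a method that corrects background, normalizes quantiles and summarises the probes of each probe set; the methods of the study also name limma for its tests. Of 5028 probe sets, 29 controls and 18 dimmer duplicates of a gene were left out, and 4981 features were tested. Symbols were updated through gene identifiers to RefSeq (assembly ASM294v3), which moved 24 of 115 mug symbols of the platform to another name. Linear models with 1 mean per group were fitted to all 24 arrays (limma 3.58.1, R 4.3.3, 15 residual degrees of freedom, no filter, no covariate), with two-sided Benjamini-Hochberg adjusted p-values, and the fit was tested on simulated data. Array medians lay between 10.99 and 11.08, and no scanner measure of precision was used, so that the number of arrays limits it. Samples were grouped by genotype label; the titles of the mst1-ts arrays say mst2-ts, and the other labels were followed. Over the whole series replicate numbers did not pair samples: of 77 same-numbered pairs, 22 had deviations correlated over 0.1 (range -0.70 to 0.56). Between some strains all such pairs were positive, as for mst1-ts with Δgcn5Δmst2 (0.40 to 0.56) and wild type with Δgcn5 (0.26 to 0.46) or Δmst2 (0.14 to 0.54). Those of Δgcn5 with Δmst2 were all negative (-0.70 to -0.31). The genes named were, for each comparison, the 5 largest rises and falls, the 10 members with the most calls, the 5 brightest and dimmest, the 5 widest ranges and counts of 5 or fewer. The members and all gene lists were chosen with earlier results of these data known. The submitters' labels give 9 arrays labelled by MessageAmp II and 15 by the One-Cycle protocol; the methods name the latter alone. No sequences were used here.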

Additional observations from a re-analysis of the deposited data

Results flagged for a closer look

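The groups of 2 or 3 arrays are too small for a test of single outlying values, so only differences between effects are given here. The departure of Δgcn5Δmst2 from the sum of Δgcn5 and Δmst2 was called by limma for 2 mug genes. It was 2.26 for mug108 and -0.65 for mug129 on the log2 scale. Both fits take in the libraries labelled Δgcn5 and Δmst2 replicate 2, which went against their labels. Without those libraries both genes were still called, mug108 at 2.24 ± 0.59 (limma adjusted p = 0.044) and mug129 at -0.73 ± 0.16 (limma adjusted p = 0.020). Neither was called with the arrays of the first date alone, with date as a covariate or with only the compared groups fitted. Over all alternatives the call was lost for mug108 under 8 of 18, among them the omission of Δgcn5 replicate 1, of Δmst2 replicate 3 or of any Δgcn5Δmst2 array, and for mug129 under 9 of 19, among them the omission of wild-type replicate 2, Δgcn5 replicate 1, Δmst2 replicate 1 or 3 or Δgcn5Δmst2 replicate 1 or 3.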

How the results depend on the processing

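The replicate numbers were added as a block although they do not pair the samples: 24 mug genes were then called in Δelp3, 45 in mst1-ts, 30 in Δgcn5Δmst2, 25 in Δgcn5Δelp3, 23 in Δmst2Δelp3 and 19 in the triple mutant, and 0 in place of 1 for the addition of gcn5 loss to elp3 loss, while no other count of calls passed 1.5 times its value. With the block 12.7% of all features rose and 8.17% fell in Δelp3, 13.5% and 21.6% in mst1-ts, and 13.2% and 10.9% in Δgcn5Δmst2. In Δgcn5Δelp3 11.3% and 8.41% of all features did, in Δmst2Δelp3 12.1% and 9.09%, and in the triple mutant 5.80% and 4.74%. Without the 2 libraries that went against their labels the calls were 6 in Δgcn5, 1 in Δmst2, 4 for adding gcn5 loss to elp3 loss, 6 for the interaction of gcn5 and mst2 and 1 for that of gcn5 and elp3. With date as a covariate they were 2 in Δelp3, 6 in Δgcn5Δelp3, 2 in Δmst2Δelp3, 7 in the triple mutant and 0 for the interaction of gcn5 and mst2; the covariate rests on Δgcn5Δmst2 alone and does not carry the labelling kit. Within 1 date they were 15 in Δgcn5Δmst2, 7 for adding gcn5 loss to elp3 loss and 0 for the interaction of gcn5 and mst2. A further quantile normalization gave 2 for adding gcn5 loss to elp3 loss. With the lowest 20% of features left out 31 mug genes were tested. Of all features kept, 10.4% rose and 9.66% fell in Δelp3, where 6.45% and 3.23% of the mug genes did. In mst1-ts 11.4% and 21.2% of all features did, and in Δgcn5Δmst2 12.3% and 12.1%. In Δgcn5Δelp3 9.66% and 10.0% did, in Δmst2Δelp3 11.2% and 10.0%, and in the triple mutant 4.19% and 5.65%. The mug calls were 3 in Δelp3, 15 in mst1-ts, 13 in Δgcn5Δmst2, 3 in Δgcn5Δelp3, 4 in Δmst2Δelp3 and 5 in the triple mutant. They were 0 for each addition to elp3 loss, 1 for the interaction of gcn5 and mst2 and 21 for the F test. With only the compared groups fitted they were 6 in the triple mutant, 7 for adding gcn5 loss to elp3 loss and 0 for the interaction of gcn5 and mst2. Except where fewer genes or arrays were fitted, the cause was not tested.

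Leaving out each array in turn gave between 0 and 2 calls for Δgcn5, 0 and 5 for Δmst2, 37 and 44 for mst1-ts, 22 and 28 for Δgcn5Δmst2, 15 and 25 for Δelp3, 16 and 26 for Δgcn5Δelp3, 16 and 23 for Δmst2Δelp3, 15 and 22 for the triple mutant, 0 to 1 and 1 to 2 for adding gcn5 or mst2 loss to elp3 loss and 0 to 6 for the interaction of gcn5 and mst2, and 0 for the other 2 interactions. The extremes were 15 without Δelp3 replicate 1, 16 without Δgcn5Δelp3 replicate 1, 2 for Δgcn5 without Δgcn5 replicate 2, 5 for Δmst2 without Δmst2 replicate 3, and 0 without Δmst2 replicate 3 and 6 without Δmst2 replicate 2 for the interaction of gcn5 and mst2. The shares of all features moved too. In Δelp3 7.33% rose and 5.84% fell without Δelp3 replicate 1, and 10.9% and 7.05% without wild-type replicate 1. In Δgcn5Δmst2 8.59% and 6.65% did without wild-type replicate 1, and 12.4% and 10.8% without wild-type replicate 3. Of 112 called changes of named genes, none turned its direction under any alternative run. Under all those run for them 33 stayed past the threshold, among them mug14, mug147, mug108, mug150 and mug106 in mst1-ts and mug97 in Δelp3. mug108, mug150, mug106 and mug97 were not among the genes kept when the lowest 20% of features were left out.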
